A study of Homo sapiens with 6 samples.

Results

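Metallothioneins are small cysteine-rich proteins that hold zinc, copper and cadmium. The genes described here are the human metallothioneins MT1A, MT1E, MT1F, MT1G, MT1M, MT1X and MT2A, with MTF1, which encodes the zinc-sensing transcription factor of these genes, and SLC30A1, which encodes the zinc exporter of the plasma membrane. They were taken from the table by gene symbol and make up 9 of the 61731 genes and loci in the table. The libraries came from U87-MG, an established human glioblastoma cell line. Total RNA of 3 libraries of negative control (NC) cells and 3 libraries labelled as CHRM3 knockdown (KD) was sequenced in pairs of reads, and the study asked which transcripts depend on CHRM3, the M3 muscarinic acetylcholine receptor. The methods describe knockdown by lentivirus in cells grown with fetal bovine serum, and no agent that supplies or removes metal is named for either group. Neither the labels nor the methods say which knockdown sequence the cells carried or whether replicates were separate cultures, so the p-values below measure only the spread between libraries. The numbers of the KD libraries could also stand for the different knockdown sequences, in which case their spread would include that between sequences.

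When zinc rises in the cell, MTF1 binds metal response elements upstream of the metallothionein genes and of SLC30A1 and raises their transcription. Metallothionein then buffers the metal and SLC30A1 carries zinc out of the cell. In astrocytes and in glial tumour cells, MT2A and several MT1 genes are commonly the expressed forms, whereas MT3 is known for its expression in the brain. Metallothionein genes are also induced by glucocorticoids and by oxidative stress, the latter partly through antioxidant response elements.

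The level of CHRM3 lay between 0.02 and 0.13 TPM in NC and between 0.01 and 0.13 TPM in KD. An exact two-sided permutation test gave p = 0.8, where 0.1 is the smallest p for 3 libraries against 3. At levels so near the floor of the table a reduction of the target was not detectable. The paper reports efficient knockdown of CHRM3 in U87-MG cells by separate measurements, while the groups here rest on their labels. TPM, the abundance unit of the table, is a share of each library that takes transcript length into account, so levels can be compared between genes, but it keeps no depth. Between 22597 and 23311 genes were above 0 TPM per library. The glial and tumour labels were checked against markers: VIM was at 6528 to 7451 TPM, the astrocyte marker GFAP was at 0.87 to 1.46 TPM and AQP4 was listed at 0 in all 6 libraries. All 5 leukocyte, all 3 oligodendrocyte and all 3 endothelial markers were under 1 TPM in every library. Of the 3 neuron markers, SNAP25 was higher in KD (log2 fold change 0.47, limma adjusted p = 0.00255), and summed over the list the level was 9.37 to 10.9 TPM in NC and 14.07 to 14.62 TPM in KD, while RBFOX3 and SYT1 stayed under 1 TPM. Its part in the results below was not tested.

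For 4 of the 9 genes a promoter was at hand in the RefSeq table (GRCh38.p14), namely MT2A, MT1X, SLC30A1 and MTF1. The 250 bases before the RefSeq transcript start are printed 5′ to 3′ on the strand of the gene for the 3 of them that carried a metal response element, because the comparison below separates MT2A from MT1X. The MT2A window is chr16:56608334-56608583 on the plus strand, that of MT1X chr16:56682220-56682469 on the plus strand and that of SLC30A1 chr1:211579162-211579411 on the minus strand. GENCODE 29 places the start of the MT2A and MT1X genes farther upstream than RefSeq, so all of the MT2A window and the end of the MT1X window lie within its gene models. For SLC30A1 the start in GENCODE 29, base 211578742, lies downstream of the RefSeq window, whose nearest base is 211579162, so the window is not next to that start. Capitals mark the core of a metal response element, written TGCACNC (A form) or TGCGCNC (G form), where a match on the opposite strand reads GNGTGCA or GNGCGCA.

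MT2A: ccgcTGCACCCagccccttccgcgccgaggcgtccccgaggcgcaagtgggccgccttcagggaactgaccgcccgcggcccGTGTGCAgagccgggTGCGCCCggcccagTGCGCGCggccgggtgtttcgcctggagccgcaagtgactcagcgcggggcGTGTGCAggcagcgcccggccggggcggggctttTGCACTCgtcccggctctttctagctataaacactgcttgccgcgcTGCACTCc
MT1X: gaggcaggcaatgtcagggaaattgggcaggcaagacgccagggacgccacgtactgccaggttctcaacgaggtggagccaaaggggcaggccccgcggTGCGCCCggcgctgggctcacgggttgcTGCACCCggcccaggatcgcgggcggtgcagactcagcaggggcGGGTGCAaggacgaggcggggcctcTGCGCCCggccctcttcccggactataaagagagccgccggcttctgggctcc
SLC30A1: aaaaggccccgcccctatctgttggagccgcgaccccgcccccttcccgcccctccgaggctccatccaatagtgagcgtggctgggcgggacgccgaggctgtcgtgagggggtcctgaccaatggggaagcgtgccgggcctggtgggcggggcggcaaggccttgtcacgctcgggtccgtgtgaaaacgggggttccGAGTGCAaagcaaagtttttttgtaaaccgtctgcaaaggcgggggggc

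The MT2A window held 7 cores, 5 of the A form and 2 of the G form, and the one nearest to the start spanned bases -8 to -2. The MT1X window held 4, 2 of each form, between bases -150 and -47. SLC30A1 had 1 core, of the A form on the opposite strand at bases -49 to -43, and MTF1 had 0. Over 35116 promoter windows of the same length, 24.8% held at least 1 core, 1.58% at least 3 and 0.12% at least 5. MT2A and MT1X were therefore rich in this motif among all promoters, whereas a single core as in SLC30A1 was common. The core of the antioxidant response element, TGACNNNGC, matched 1 time each in MT2A, MT1X and SLC30A1, against 10.9% of all windows with a match, and none of these overlapped a metal core. A high number of cores did not always go with a high level, since the MT1H window held 8 cores and MT1H was listed at 0 TPM in every library. These matches are letters in a window and say nothing of binding in these cells.

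All 9 genes were in the table and 8 reached the limit for testing, which was a 6-library mean of 1 TPM. The MT1X transcript rose 2.02-fold and MT1E 1.42-fold in KD, whereas MT2A, by far the most abundant of them, did not pass the test. SLC30A1 was lower, at 0.83 of its NC mean, a call that was lost in 10 of 16 alternatives, and MTF1 did not pass. In numbers, 3 of the 8 tested genes passed an adjusted p of 0.05, 2 higher and 1 lower, against 36.1% of all 13722 tested genes (12.1% higher and 24.0% lower). The share among these genes was thus near that of the whole table. Under median-of-ratios scaling 3 passed, all higher, and after quantile normalization 3 were higher and 1 lower. Their median log2 fold change was -0.07 and that of all tested genes -0.06. These are bulk libraries, in which a larger share of expressing cells and more RNA per cell cannot be told apart.

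**Figure D1:**
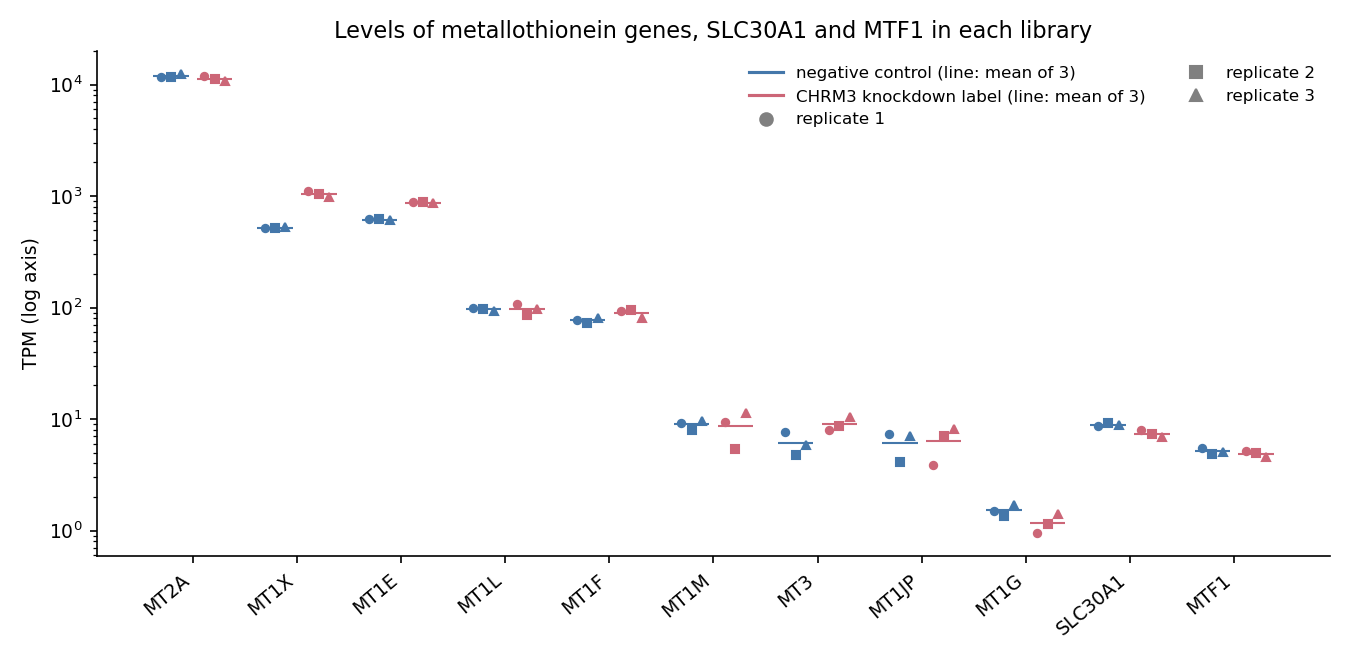
TPM on a log axis of the tested metallothionein genes, SLC30A1 and MTF1 in each of the 6 libraries, with lines at the mean of each group of 3. Only MT1X and MT1E stand clearly apart between the groups at high levels, and MT2A lies between 10698 and 12496 TPM in every library.

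MT2A (ENSG00000125148, chromosome 16 from 56608199 to 56609497, plus strand), the main inducible metallothionein of most human cells, was at 11711.5, 11714.51 and 12496.18 TPM in NC replicates 1, 2 and 3. In KD replicates 1, 2 and 3 it was at 11914.35, 11178.62 and 10698.49 TPM. The groups overlapped, with KD replicate 1 above 2 of the controls. Its mean was 11974 ± 452 TPM in NC and 11264 ± 612 TPM in KD (SD, n = 3), a log2 fold change of -0.09 with a 95% interval from -0.19 to 0.02 (limma adjusted p = 0.164). It ranked 1, 2 and 1 among all genes of the NC libraries and 3, 4 and 4 among those of the KD libraries. Without KD replicate 1 the log2 fold change was -0.13 and passed (adjusted p = 0.0426), and after quantile normalization it was -0.23 (adjusted p = 0.00109). It was closer to 0 under median-of-ratios scaling, at -0.02 (adjusted p = 0.782), and without KD replicate 3, at -0.05.

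MT1X (ENSG00000187193, chromosome 16 from 56682424 to 56684196, plus strand), the metallothionein at the far end of the gene cluster, was at 512.57, 511.67 and 529.74 TPM in NC. Its KD values were 1116.62, 1045.29 and 976.15 TPM. Every KD library was well above every control, and the KD libraries were the more spread. The mean was 518 ± 10.2 TPM in NC and 1046 ± 70.2 TPM in KD (SD, n = 3). The log2 fold change was 1.01 ± 0.0476 (SE) with a 95% interval from 0.90 to 1.13 (limma adjusted p = 3.07e-05). No other gene of the 9 reached a log2 fold change of 1 in size, which 1.87% of all tested genes passed in either direction and 0.67% on the higher side. That size was just at the limit, since the log2 fold change was 0.96 without KD replicate 1. The 3-exon transcript of MT1X has 450 bases, and 68.4% of its 75-base and 94.4% of its 150-base windows occurred in no other gene. The shared 75-base windows belonged to MT1G, to the pseudogene MT1XP1 and to ENSG00000259827, a processed transcript that overlaps MT1X on the same strand. At 150 bases, the read length in the methods, the shared windows belonged to ENSG00000259827 alone, which was listed at 0 TPM. MT1XP1 itself was listed at 0 in 5 libraries and at 5.17 TPM in KD replicate 1. Reads that lie wholly within a shared window cannot be told apart.

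MT1E (ENSG00000169715, chromosome 16 from 56625475 to 56627112, plus strand), another ubiquitous MT1 form, was at 616.18, 616.87 and 609.29 TPM in NC and at 876.99, 880.93 and 857.72 TPM in KD. The groups were far apart and each was narrow, 614 ± 4.19 TPM against 872 ± 12.4 TPM (SD, n = 3). The log2 fold change was 0.51 ± 0.0163 (SE; limma adjusted p = 7.32e-06), and 99.2% of its 75-base windows were found in no other gene. The order of the middle pair turned between the groups. MT1E was above MT1X in each NC library and MT1X above MT1E in each KD library.

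MT1F (ENSG00000198417, chromosome 16 from 56657694 to 56660698, plus strand) was at 76.57, 72.91 and 81.16 TPM in NC and at 93.41, 94.42 and 80.45 TPM in KD. KD replicates 1 and 2 were above all controls and KD replicate 3 lay within them. The log2 fold change of 0.21, with a 95% interval from 0.04 to 0.38, did not pass (limma adjusted p = 0.0581). It passed without KD replicate 3 (0.29, adjusted p = 0.0109), under median-of-ratios scaling (0.28, adjusted p = 0.0217), after quantile normalization (0.28, adjusted p = 0.0278) and with a limit of 5 TPM (adjusted p = 0.0443).

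The other MT1 genes of the group were low. MT1M (ENSG00000205364), from 56632233 to 56633986 on the plus strand of chromosome 16, was at 9.29, 8.05 and 9.65 TPM in NC and at 9.44, 5.42 and 11.38 TPM in KD. The KD libraries spanned the controls on both sides (log2 fold change -0.09, 95% interval from -0.65 to 0.48, limma adjusted p = 0.811), and the value was 0.19 without KD replicate 2. MT1G (ENSG00000125144), from 56666731 to 56668065 on the minus strand, was at 1.51, 1.36 and 1.69 TPM in NC and at 0.95, 1.14 and 1.42 TPM in KD. KD replicate 3 fell between the controls (log2 fold change -0.22, 95% interval from -0.55 to 0.11, limma adjusted p = 0.265). For MT1A (ENSG00000205362), from 56638666 to 56640087 on the plus strand, the table listed 0 in 5 libraries and 0.36 TPM in NC replicate 3, and it was under the limit for testing (exact two-sided permutation test, p = 1.0).

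In the order of NC levels, MT2A stood above MT1E, MT1E above MT1X, MT1X above MT1F and MT1F above MT1M with no overlap between neighbouring genes. In KD the same held with MT1X and MT1E exchanged. MT1M and SLC30A1 overlapped in both groups and could not be ranked. MTF1 lay below SLC30A1 in every library, and MT1G below MTF1.

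The summed TPM of the 12 protein-coding metallothionein genes was 12935.2, 12930.1 and 13733.9 in NC and 14019.8, 13214.4 and 12636.0 in KD. These sums overlapped, with means of 13200 ± 463 and 13290 ± 695 TPM (SD, n = 3), or between 1.264% and 1.402% of all TPM of a library. Within that sum the makeup moved. MT2A took 90.54%, 90.6% and 90.99% of it in NC and 84.98%, 84.59% and 84.67% in KD, without overlap. MT1X took 3.93% ± 0.0594 in NC and 7.87% ± 0.126 in KD, and MT1E 4.66% ± 0.191 in NC and 6.57% ± 0.279 in KD (SD, n = 3). Together MT2A, MT1X and MT1E held between 99.17% and 99.33% of the sum in each library. The summed MT1 genes were at 1216.12, 1210.86 and 1231.89 TPM in NC and at 2097.41, 2027.2 and 1927.12 TPM in KD, 1.65-fold higher in KD.

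Ratios within a library do not depend on a factor that scales the whole library, whereas quantile normalization can change them. MT1X was at 4.377, 4.368 and 4.239 TPM per 100 TPM of MT2A in NC and at 9.372, 9.351 and 9.124 in KD, 2.15-fold more. MT1E was at 5.261, 5.266 and 4.876 TPM per 100 TPM of MT2A in NC and at 7.361, 7.88 and 8.017 in KD, 1.51-fold more. MT1X per TPM of MT1E was 0.8319, 0.8295 and 0.8694 in NC and 1.273, 1.187 and 1.138 in KD. For each of these 3 ratios the groups did not overlap, and the exact two-sided permutation p was 0.1, the smallest possible, before and after adjustment over the 3. Thus MT1X moved more than MT1E, and both moved relative to MT2A, in all 3 KD libraries. MT1X and MT1E were already called higher in these same libraries, so the ratios describe that difference and are not separate evidence for it. MT2A and MT1X had the same order within KD, highest in replicate 1 and lowest in replicate 3. For its mean, MT1X relative to MT2A spread less among the KD libraries (9.28 ± 0.137) than its TPM did (1046 ± 70.2). In NC these spreads of MT1X were close (4.33 ± 0.0769 and 518 ± 10.2). MT1E was the reverse in KD, with the wider spread relative to MT2A (7.75 ± 0.346) and the narrower in TPM (872 ± 12.4).

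**Figure D2:**
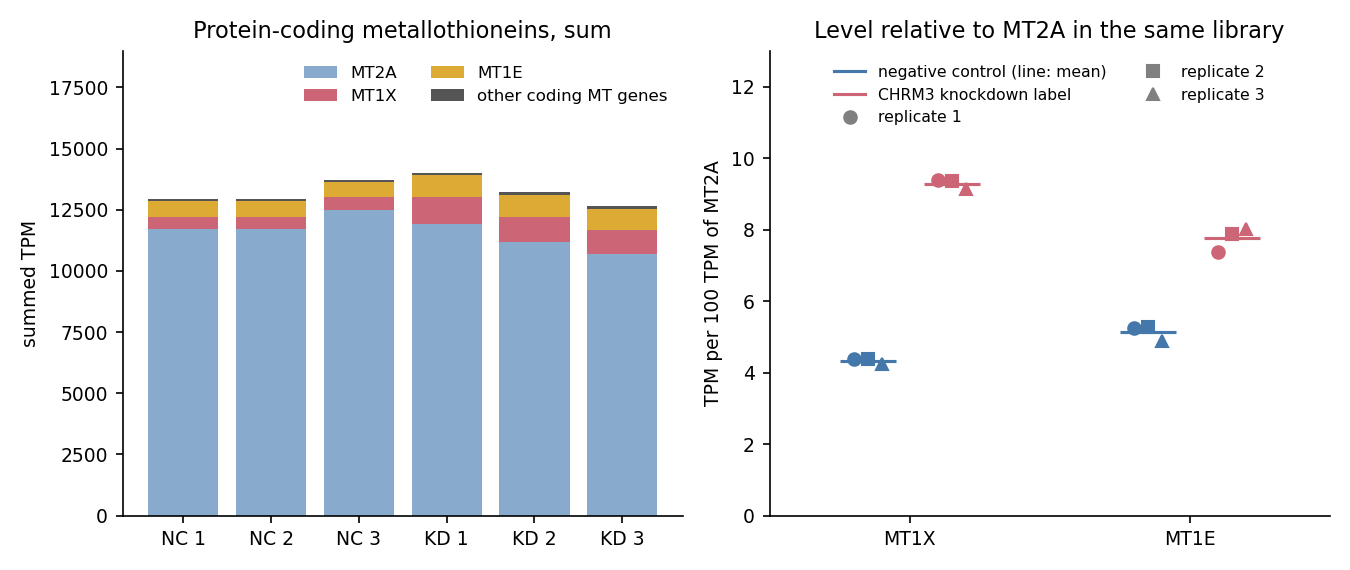
Left, TPM of MT2A, MT1X, MT1E and the other protein-coding metallothioneins stacked for each library; right, MT1X and MT1E per 100 TPM of MT2A in the same library, with lines at the group means. The summed height overlaps between the groups (12930.1 to 13733.9 in NC, 12636.0 to 14019.8 in KD), while MT1X per 100 TPM of MT2A goes from 4.239 to 4.377 in NC to 9.124 to 9.372 in KD.

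MTF1 (ENSG00000188786, chromosome 1 from 37809567 to 37859620, minus strand), the metal-responsive transcription factor, was at 5.48, 4.9 and 5.05 TPM in NC and at 5.13, 5.01 and 4.54 TPM in KD. The groups overlapped and the log2 fold change was -0.06 with a 95% interval from -0.24 to 0.12 (limma adjusted p = 0.578). Its activity depends on zinc binding and location in the cell, neither of which a transcript level shows.

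SLC30A1 (ENSG00000170385, chromosome 1 from 211571568 to 211578742, minus strand), the exporter that MTF1 controls, was at 8.65, 9.16 and 8.93 TPM in NC and at 8.0, 7.28 and 6.92 TPM in KD. All KD libraries were below all controls, but the gap between the nearest libraries was small. The mean was 8.91 ± 0.255 TPM in NC and 7.40 ± 0.55 TPM in KD (SD, n = 3). The log2 fold change was -0.24 ± 0.066 (SE; limma adjusted p = 0.0308). That call was lost in 10 of the 16 alternatives, with limma adjusted p from 0.0514 to 0.0917. Among them were median-of-ratios scaling, quantile normalization and leaving out any one library other than KD replicate 1. The direction was lower in all 16, from -0.29 to -0.18. Counted over the 9 genes, the groups did not overlap for MT1X and MT1E, higher in KD, and for SLC30A1, lower in KD, while 50.2% of all tested genes were without overlap, 17.4% higher and 32.8% lower.

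**Figure D3:**
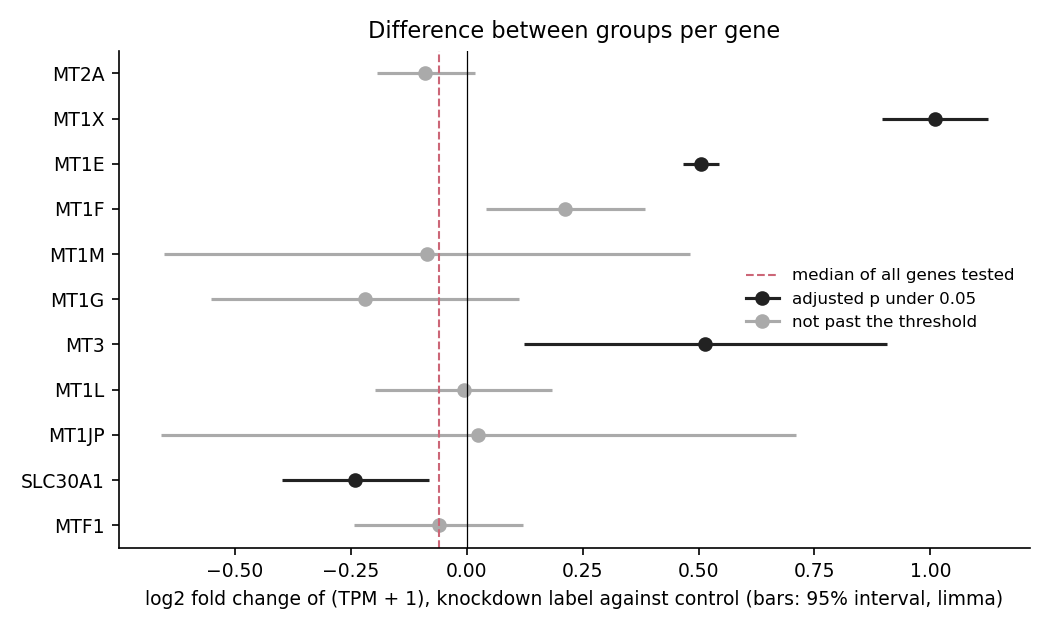
Log2 fold change of (TPM + 1) of KD against NC with its 95% interval from limma for each tested metallothionein, SLC30A1 and MTF1, with a dashed line at the median of all tested genes (-0.06). The intervals of MT1X (1.01), MT1E (0.51), MT3 (0.52) and MT1F (0.21) lie to the right of 0, and that of SLC30A1 (-0.24) to the left. MT1F did not pass the adjusted threshold. The intervals of MT1M and MT1JP are the widest.

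The 7 metallothioneins share a compact gene structure. Each has a coding sequence of 183 bases, or 61 codons, of which 20 encode cysteine, the residue that binds the metal. The coding sequences were between 88.5% and 95.1% identical over 21 pairs, with a median of 91.8%, and MT1X was 92.9% identical to MT2A and 90.7% to MT1E. They stand in 1 cluster on chromosome 16 (GENCODE 29, GRCh38), from MT2A at base 56608199 to the end of MT1X at base 56684196. Counted from MT4 at base 56565049, the cluster spans 119148 bases with 19 genes in the table, 9 of them above the limit for testing. MT1E and MT1X, the pair that rose, are not neighbours there. MT1M, MT1A, MT1F and MT1G lie between them. MT1A was under the limit for testing. MT1M, MT1F and MT1G were not called in the main fit, though MT1F passed as higher in 4 of 16 alternatives.

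Of 14 further metallothionein genes and pseudogenes, 9 were listed at 0 in all libraries, among them MT1B, MT1H and MT4, and 3 could be tested. MT3, the growth-inhibitory form of the brain, was at 7.6, 4.77 and 5.79 TPM in NC and at 7.99, 8.59 and 10.41 TPM in KD. The KD libraries were above the controls by a narrow margin, and the call (log2 fold change 0.52, limma adjusted p = 0.0488) was lost in 10 of 16 alternatives, with adjusted p up to 0.134. The pseudogene MT1L, with a level near that of MT1F, was at 99.09, 97.42 and 92.97 TPM in NC and at 107.06, 85.36 and 96.9 TPM in KD. Its log2 fold change was -0.01 (limma adjusted p = 0.961), or 0.06 under median-of-ratios scaling and after quantile normalization. MT1JP, a pseudogene next to MT1M, was at 7.3, 4.12 and 7.0 TPM in NC and at 3.89, 7.0 and 8.16 TPM in KD, which overlapped widely (log2 fold change 0.03, limma adjusted p = 0.957).

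Of the 8 genes that flank the cluster, 6 were tested and 2 were higher in KD, against 12.1% higher among all tested genes. Their median log2 fold change was 0.05. HERPUD1, a stress-induced gene of the endoplasmic reticulum, was at 33.26, 32.85 and 31.66 TPM in NC and at 41.97, 41.33 and 38.85 TPM in KD (log2 fold change 0.31, limma adjusted p = 0.00181). BBS2, a subunit of the ciliary BBSome, differed by 0.21 on the log2 scale (limma adjusted p = 0.0296), a call lost in 6 of 16 alternatives. NUDT21, OGFOD1 and NUP93 did not pass, with log2 fold changes of 0.06, -0.10 and -0.08. All of these log2 fold changes were smaller in size than those of MT1X and MT1E.

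The gene lists were chosen with earlier results of these data known, so their shares beside those of all tested genes are descriptions only. The wider set of zinc genes held members on both sides. Among the other SLC30 exporters, 1 of 5 tested genes was lower and 0 were higher (against 24.0% and 12.1% among all tested genes). Their median log2 fold change was -0.21. SLC30A7, which loads zinc into the Golgi, was at 8.75, 8.98 and 8.96 TPM in NC and at 5.82, 5.45 and 5.4 TPM in KD (log2 fold change -0.59, limma adjusted p = 0.000467). Its KD libraries lay far below the controls, and its log2 fold change was larger in size than that of SLC30A1, a difference that was not tested. SLC30A9, the most abundant of the list, differed by 0.03 on the log2 scale (limma adjusted p = 0.541).

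Of the SLC39 importers, which bring zinc into the cytosol, 6 of 11 tested genes were lower and 2 higher. Among all tested genes 24.0% were lower and 12.1% higher. The median log2 fold change of the importers was -0.17. Under median-of-ratios scaling 4 were lower and 3 higher. SLC39A7, which releases zinc from the endoplasmic reticulum and was the most abundant, was at 139.4, 138.09 and 138.82 TPM in NC and at 102.86, 98.77 and 103.11 TPM in KD (log2 fold change -0.45, limma adjusted p = 6.32e-05). SLC39A4, the importer of intestinal zinc uptake, was at 19.77, 19.34 and 17.84 TPM in NC and at 25.04, 23.94 and 24.85 TPM in KD (log2 fold change 0.36, limma adjusted p = 0.00212). Each of these had no overlap between groups. SLC39A3 was lower (-0.31, limma adjusted p = 0.0065), and the calls of SLC39A11 (-0.30) and SLC39A10 (0.31) were each lost in 9 alternatives.

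Copper genes moved in both directions. Of 10 tested, 3 were lower and 1 higher (against 24.0% lower and 12.1% higher among all tested genes). The median log2 fold change was -0.04, and it was 0.03 under median-of-ratios and 0.05 under quantile scaling. The counts were then 1 lower and 2 higher, and 2 lower and 2 higher. ATOX1, the copper chaperone, was at 270.19, 255.68 and 256.39 TPM in NC and at 305.6, 321.09 and 297.21 TPM in KD (log2 fold change 0.24, limma adjusted p = 0.00315). SLC31A2, a copper transporter of internal membranes, was lower (-0.50, limma adjusted p = 0.00592). SOD1, a copper and zinc enzyme, differed by -0.11 on the log2 scale (limma adjusted p = 0.00248), which was -0.04 and not past the test under median-of-ratios scaling, and the call of SLC31A1, the copper importer (-0.19, adjusted p = 0.0365), was lost in 10 of 16 alternatives.

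Other genes that metals or oxidants induce went mainly the other way from MT1X and MT1E. Of 9 tested, 7 were lower and 1 was higher (against 24.0% lower and 12.1% higher among all tested genes), with a median log2 fold change of -0.38. Under median-of-ratios scaling 4 were lower and 1 higher, and the counts were the same after quantile normalization. The list was chosen with earlier results of these data known, so its share is a description only. HSPA1B, an inducible heat shock protein with a near-identical copy in HSPA1A, was at 172.42, 176.33 and 183.76 TPM in NC and at 95.09, 92.94 and 88.32 TPM in KD (log2 fold change -0.94, limma adjusted p = 1.76e-05). TXNRD1 (-0.84, limma adjusted p = 5.61e-06), NQO1 (-0.49, adjusted p = 4.02e-05) and SRXN1 (-0.41, adjusted p = 0.000398) fell too. HMOX1, the haem-degrading enzyme, was the one that rose, from 281.34, 275.9 and 282.11 TPM in NC to 384.89, 379.22 and 375.09 TPM in KD (log2 fold change 0.44, limma adjusted p = 2.22e-05).

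Of 8 tested genes in the glucocorticoid list, 5 were higher and 0 lower (against 12.1% and 24.0% among all tested genes), with a median log2 fold change of 0.28. The other 3 did not pass, among them the gene of the receptor itself. For 1 of these 3 every KD library was below every control. Counts of called genes were the same under all scalings and with each library left out. Without the mean-variance trend 1 gene was called lower. This list and the others were chosen with earlier results of these data known, so their counts are descriptions and not evidence for the lists. DUSP1, a phosphatase of MAP kinases that growth signals and stress induce as well, was at 131.89, 127.99 and 130.93 TPM in NC and at 236.42, 238.08 and 241.74 TPM in KD (log2 fold change 0.87, limma adjusted p = 2.79e-06). TSC22D3 (0.49, limma adjusted p = 0.000344), FKBP5 (0.49, adjusted p = 0.00111), ERRFI1 (0.29, adjusted p = 0.000354) and SGK1 (0.28, adjusted p = 0.000698) rose as well. Over all the lists beside the 9 genes, 29 of 52 tested genes passed, 17 lower and 12 higher, against 36.1% of all tested genes. Under median-of-ratios scaling 24 passed, 10 lower and 14 higher. Of the 4955 genes past the threshold in the whole table, 66.5% were lower, against 49.1% under median-of-ratios scaling, while quantile normalization gave 2229 lower and 2233 higher.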

How the data were processed

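RNA-seq of 6 U87-MG libraries, 3 NC and 3 KD by their labels, was analysed. The authors deposited TPM per gene and library, rounded to 2 decimals, in 1 table with 0 columns left without a sample. The submitters' processing notes list fastp, RSEM and the build GRCh38.p13 without versions of the tools. The labels name a SMARTer kit and the methods a TruSeq kit. RSEM divides reads that match several genes by estimate, which bears on near-identical metallothioneins. Each library has the same TPM total, so abundant genes move all others, and depth is unknown; no counting interval is given.

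Using limma 3.58.1 (R 4.3.3; lmFit and eBayes with trend), log2(TPM + 1) was compared between groups for the 13722 genes whose 6-library mean reached 1 TPM, with Benjamini-Hochberg adjustment over all of them and a threshold of 0.05. The pseudocount of 1 understates the change of low genes. All adjusted p-values come from limma, and intervals and SE from the same fit. Genes under the limit and ratios within a library were compared by exact two-sided permutation tests.

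The members and the gene lists were chosen with earlier results of these data known. The named genes were all 9 members, the other metallothioneins that were tested, of each list at most 5 genes past the threshold by size of the log2 fold change and its most abundant gene, all tested flanking genes except 1 that is not reported here, and the 3 genes most and least like the summed metallothioneins over the 6 libraries. Markers and MT1H, MT1B, MT4 and MT1XP1 were named beside them. Gene coordinates, types and transcripts came from GENCODE 29 (GRCh38), and promoters from RefSeq (GRCh38.p14). Windows of 75 and 150 bases of the principal transcript of each gene were searched in all transcripts of other genes. Alternatives varied the pseudocount (0.1 and 0.5), the limit (0.1 TPM, 5 TPM or none), the scaling (quantile normalization, median of ratios, or without mitochondrial transcripts), use of the trend, a replicate block, and each library left out in turn.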

Additional observations from a re-analysis of the deposited data

How the results depend on the processing

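The 16 alternatives kept the direction and the call of MT1X (log2 fold change 0.96 to 1.08) and of MT1E (0.49 to 0.58). The number of the 9 genes that passed was 3, and between 2 and 4 under the alternatives, including 2 with the replicate block, where SLC30A1 was lost (adjusted p = 0.0788). With each library left out in turn it was 2 to 4, and for all tested genes 3850 to 4210 against 4955. Replicate numbers did not pair the libraries: correlations of deviations were -0.02 to 0.03 for the 3 pairs of the same number and -0.07 to 0.03 for the 6 others. With the block 4007 genes passed, and 22 of the listed genes in place of 29. Past a log2 fold change of 1 in size the count was 256, against 399 with a pseudocount of 0.1 and 145 with a limit of 5 TPM.

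Among the members, other metallothioneins and named genes of the other lists, the sign turned for 3 genes that did not pass, and the cause was not tested. Markers and the genes named for their likeness to the summed metallothioneins were not recomputed gene by gene. MT1M, at -0.09, ranged from -0.285 to 0.189 with each library left out in turn and was above 0 without KD replicate 2. MT1L, at -0.01, was 0.064 under median-of-ratios and 0.06 under quantile scaling and ranged from -0.084 to 0.078 with each library left out, above 0 without NC replicate 1, NC replicate 2 or KD replicate 2. MT1JP, at 0.03, ranged from -0.198 to 0.295, below 0 without NC replicate 2, KD replicate 2 or KD replicate 3. MT1G could not be tested with a limit of 5 TPM. Groups of 3 limit every p-value above to the spread between these libraries, and the depth behind low values such as those of MT1A and MT1G is unknown.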

Other observations

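Outside the lists, the genes whose log2(TPM + 1) followed that of the summed protein-coding metallothioneins most closely over the 6 libraries, among the 7564 genes that averaged 10 TPM or more, were SRSF2, a splicing factor (Pearson r = 0.99), OGDH, a subunit of the 2-oxoglutarate dehydrogenase complex (0.98), and PDHX, a subunit of the pyruvate dehydrogenase complex (0.98). SRSF2 was at 372.63, 367.18 and 404.27 TPM in NC and at 409.17, 379.78 and 358.47 TPM in KD. The lowest correlations were those of RAN (-0.98), a GTPase of nuclear transport, VTA1 (-0.97), of endosomal sorting, and SELENOK (-0.97), a selenoprotein of the endoplasmic reticulum. RAN was at 1180.0, 1189.5 and 1054.09 TPM in NC and at 1064.62, 1143.35 and 1231.55 TPM in KD. Like the summed metallothioneins, SRSF2 was high in NC replicate 3 and KD replicate 1 and lowest in KD replicate 3, and RAN was the reverse, so the pattern ran within the groups and not between them. The values share their libraries and scaling, and the correlations are descriptions picked as the extremes of many genes.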
